A study of Mus musculus with 7 samples.

Results

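Heart T cells were described in single-cell RNA sequencing of leukocytes from the mouse heart without infarct (steady state) and 1, 3, 5 or 7 days after myocardial infarction made by coronary artery ligation. A barcode counted as a T cell when the summed UMIs (unique molecular identifiers, 1 per captured transcript) of Cd3d, Cd3e and Cd3g came to at least 2, Cd79a stayed below 3, and C1qa, C1qb and C1qc together came to at most 2. Barcodes with fewer than 200 genes, or with over 10% of UMIs from mitochondrial genes, had been left out first. The rule kept 53 T cells of 4763 barcodes in the 5 CD45+ libraries. The series holds 21190 kept barcodes in 7 libraries, of which 2 CD11b+ pools are not part of these counts. The animals were male C57BL6/J mice with no other allele or agent named, whose age is not given in the sources used here, with 5 mice pooled at steady state, 5 each on days 1, 3 and 5, and 3 on day 7. All mice received a circulating antibody to CD45.2 shortly before death, and the sorted cells were viable, CD45+ and not labelled by that antibody, so leukocytes inside blood vessels were meant to be left out. Neutrophils were partly depleted before loading, so shares of all sorted cells are not those of the tissue. The tissue was the infarct with its border and the muscle next to it, or a matching piece of left ventricle from hearts without infarct. Each time point is 1 library of pooled mice, so no value has a replicate, no difference between time points could be tested, and the intervals given are 95% intervals that cover counting error only.

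T cells recognise peptides through a receptor whose variable chains pair with the invariant CD3 chains, and CD3 gamma, delta and epsilon carry the signal into the cell through the kinases Lck and Zap70. Conventional T cells carry either the coreceptor CD4, which binds MHC class II, or CD8, which binds MHC class I. Naive and recirculating T cells hold Ccr7, Lef1, Tcf7 and S1pr1, cytotoxic cells hold granzymes and Ccl5, and regulatory cells hold Foxp3, Ctla4 and Ikzf2. T cells of the infarcted heart are known from mouse work to include activated and regulatory CD4+ cells that bear on wound healing.

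The 3 genes used to choose the cells lie side by side on chromosome 9. In the GENCODE annotation of GRCm38, Cd3g spans chr9:44969572-44980431 on the minus strand, Cd3d spans chr9:44981786-44987339 on the plus strand and Cd3e spans chr9:44998740-45009627 on the minus strand. Cd3d and Cd3g point away from each other, and by the RefSeq start sites, which were used for the sequences, they begin 1355 bases apart. The RefSeq starts of Cd3d and Cd3e are 27825 bases apart, with a Cd3e start that differs from the end of the GENCODE span. The 250 bases upstream of each start are shown, from RefSeq on GRCm38.p6, because these genes define the cells. Capitals mark the core of an ETS family site, AGGAAG, or its reverse complement CTTCCT. They were read on the gene's own strand at chr9:44981536-44981785 for Cd3d, chr9:44980432-44980681 for Cd3g and chr9:45009612-45009861 for Cd3e.
Cd3d: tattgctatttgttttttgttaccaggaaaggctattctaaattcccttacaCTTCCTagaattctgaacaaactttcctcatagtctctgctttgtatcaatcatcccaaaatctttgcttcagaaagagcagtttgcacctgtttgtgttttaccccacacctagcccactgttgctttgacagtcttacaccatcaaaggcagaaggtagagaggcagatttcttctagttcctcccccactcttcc
Cd3g: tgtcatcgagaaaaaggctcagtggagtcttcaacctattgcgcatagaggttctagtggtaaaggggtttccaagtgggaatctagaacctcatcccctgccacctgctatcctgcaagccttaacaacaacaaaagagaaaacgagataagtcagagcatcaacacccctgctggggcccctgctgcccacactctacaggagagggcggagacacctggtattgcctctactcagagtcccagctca
Cd3e: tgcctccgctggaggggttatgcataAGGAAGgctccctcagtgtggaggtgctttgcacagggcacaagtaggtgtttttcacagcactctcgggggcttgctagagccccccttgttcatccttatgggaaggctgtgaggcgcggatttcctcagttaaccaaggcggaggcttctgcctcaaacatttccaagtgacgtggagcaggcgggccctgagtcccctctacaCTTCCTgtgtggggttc
The ETS core was found at 1 place upstream of Cd3d, at 2 places upstream of Cd3e and at 0 upstream of Cd3g. It occurs in 29.5% of 32851 upstream windows of the same length. The RUNX core TGTGGT (reverse complement ACCACA), present in 14% of all windows, and TATAAA (reverse complement TTTATA), present in 12.4%, were not found in the 3 windows on either strand. The 3 motifs do not overlap each other here, and a match is a description of letters, not of binding.

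The steady-state library held 0 T cells among 645 kept barcodes. The counts were 15 of 527 for day 1, 3 of 848 for day 3, 8 of 948 for day 5 and 27 of 1795 for day 7. As shares of kept barcodes, day 1 had 2.85% (1.60 to 4.65, exact Clopper-Pearson interval), day 3 had 0.354% (0.0730 to 1.03), day 5 had 0.844% (0.365 to 1.66) and day 7 had 1.50% (0.994 to 2.18). The 0 of 645 at steady state has an exact upper bound of 0.570%, and 3 counts, the limit used here for a count of 0, would be 0.465%. The day 1 interval did not overlap those of steady state and day 3, and the day 3, 5 and 7 intervals overlapped in neighbouring days. The day 1 share depends on the barcodes it is taken over: among those with fewer than 10 UMIs of S100a8 and S100a9, 11 of 49 were T cells, which is 22.4%. That cut does not single out neutrophils, since the neutrophil gene S100a8 was found in all 15 day 1 T cells and the cut left 11 of them. How the neutrophil reduction bears on the day 1 share was not tested. Kept barcodes had a median depth between 3595 UMIs (day 7) and 9463.5 (day 3). T cells held 1915 to 6450 UMIs, with medians in order of day of 3172, 5630, 2784.5 and 3365. No T cell used a barcode sequence that another library also held, although 13 barcodes were shared between libraries.

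**Figure D1:**
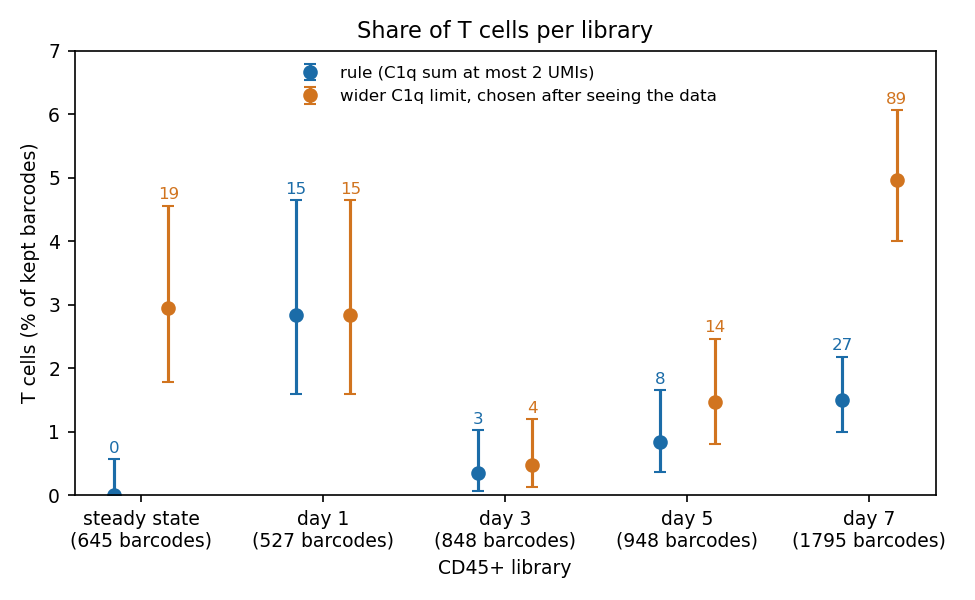
Share of kept barcodes that were T cells at each time point (points, with 95% exact binomial intervals, counting error only; 1 library per time point), by the rule and with the wider limit on C1q UMIs. By the rule, day 1 has 2.85% and steady state 0%, while the wider limit gives 2.95% at steady state and 4.96% on day 7.

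The zero at steady state stands beside a library-wide C1q signal. C1q is a complement protein that tissue macrophages make. In that library 643 of 645 kept barcodes (99.7%) held more than 2 C1q UMIs and the lowest value was 2, against 11%, 52.2%, 83.4% and 82.2% of barcodes on the following days in order. Barcodes with at least 5 Cd79a UMIs, which mark B cells, had a median of 5 C1q UMIs at steady state (9 barcodes), 4 on day 7 (838 barcodes) and 0 on day 1 (5 barcodes). At steady state 22 barcodes held at least 2 CD3 UMIs, and all 22 exceeded the C1q limit, with 4 to 163 C1q UMIs and a median of 10. Over all libraries 161 barcodes reached 2 CD3 UMIs, 108 of them failed on C1q (22, 1, 1, 9 and 75 in order of time), and 9 day 7 barcodes also failed on Cd79a. The rule thus counts T cells least completely where C1q UMIs are found in nearly all barcodes. At steady state and on days 5 and 7 its counts cannot be told apart from the course of the C1q UMIs. On days 1 and 3, 16 and 4 barcodes reached 2 CD3 UMIs, and 1 failed on C1q on each day.

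A wider limit was therefore added after the data were seen. It allowed a C1q share of UMIs up to 0.25 of the median share in macrophage barcodes of the same library (C1q at least 10 UMIs and no CD3 UMI). It gave 19 T cells in the steady-state library and then 15, 4, 14 and 89 in order of day, or 141 in all, with the 53 cells of the rule among them. These are 2.95%, 2.85%, 0.472%, 1.48% and 4.96% of kept barcodes. They are called T cells by this limit only, and not each of them held other T cell genes. A day 7 barcode held 353 Apoe, 211 Lyz2 and 45 Tyrobp UMIs, with 1 Cd3e and 1 Cd3g UMI and 0 of Lck and Cd2. Under the wider limit steady state and day 1 had nearly equal shares and day 7 had the highest. At steady state 9 of the 19 held at least 2 UMIs of the natural killer (NK) cell genes Ncr1, Klrb1c and Klre1, against 0 of 15, 0 of 4, 1 of 14 and 7 of 89 in the infarct libraries in order of day. Without these barcodes the shares at steady state and day 7 were 1.55% (10 cells) and 4.57% (82 cells). Close to the limits of the rule, 5 T cells held exactly 2 CD3 UMIs, while 13 otherwise eligible barcodes held 1. A further 17 T cells held exactly 2 C1q UMIs, while 8 otherwise eligible barcodes held 3.

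**Figure D2:**
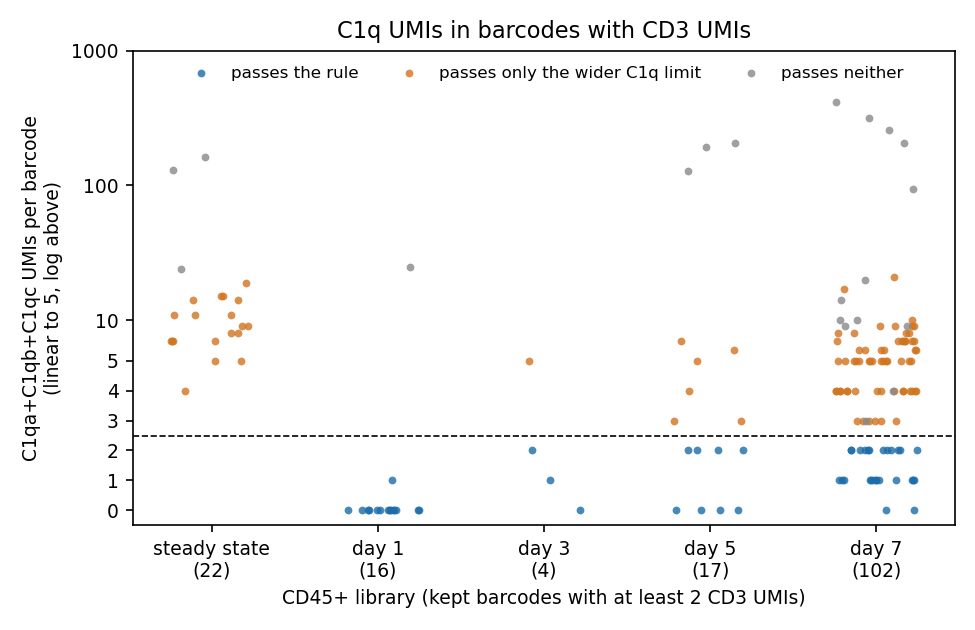
C1q UMIs (axis linear to 5, logarithmic above) in each kept barcode with at least 2 CD3 UMIs, by library, with colours for barcodes that pass the rule, only the wider limit, or neither. At steady state all 22 such barcodes lie above the limit of 2 C1q UMIs, with a median of 10.

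The label of T cells was checked against genes the rule did not use. Of 17 further T cell markers listed, 14 were in the annotation of the files (the receptor constant genes Trac, Trbc1 and Trbc2 were not analysed here). In the 53 cells 11 of these 14 had at least 20 UMIs and all 11 were at least 2-fold above the other kept barcodes in the mean over libraries, where 27.9% of 1110 genes were. Since the cells were chosen on the same counts, that is a description. The receptor kinase gene Lck stood at 276, 264, 449 and 301 CPM (UMIs scaled to a library total of 1000000 over the cells summed) on days 1, 3, 5 and 7, against 0.8 to 21.2 in the other barcodes. The adhesion receptor gene Cd2 stood at 339, 659, 1346 and 483 CPM, against 2.0 to 67.7. The adaptor gene Lat stood at 212, 791, 857 and 290 CPM, against 0.9 to 17.6. All 3 were higher in the T cells in each of the 4 libraries, with the smallest gap for Cd2 on day 7. Among genes with at least 100 T cell UMIs, 136 were ranked by mean log2 ratio, and the highest were Cd3g (7.69), Cd3d (7.34), Cd2 (6.05), Ms4a4b (5.69), Gramd3 (5.30), Gimap6 (5.06), Ets1 (5.03) and Nkg7 (4.90). They were followed by Vps37b (3.43), AW112010 (3.14), Ccl5 (3.00), Saraf (2.79), Ifngr1 (2.64), Emb (2.17) and Selplg (2.07).

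Markers of other cells were thin but present. The 6 measured B cell markers had 0 UMIs on days 1, 3 and 5 and 20 UMIs on day 7, where 8 T cells held 1 Cd79a UMI each. Of the 10 NK markers, 8 were at 0 on day 1 and 7 on day 3, Ncr1, Klrb1c and Klre1 among them. Tyrobp, an adaptor that NK and myeloid cells share, was in 9 of 15 day 1 cells (14 UMIs) and 1 of 3 day 3 cells. On the later days, 1 T cell on day 5 and 1 on day 7 held at least 2 UMIs of Ncr1, Klrb1c and Klre1. The 6 dendritic cell markers had 1 UMI over all 53 cells. Transcripts of neutrophils and macrophages were found in T cells as well: S100a8 and S100a9 of neutrophils in 15 of 15 day 1 cells, and Apoe of macrophages in 27 of 27 day 7 cells (4 to 21 UMIs) against 6 of 15 day 1 cells. A single day 1 cell stood apart with 214 S100a8 and 131 S100a9 UMIs, where the other day 1 cells held at most 9 and 6. Scrublet, a caller of barcodes that hold 2 cells, marked 18 of 4763 kept barcodes (0.378%), and that cell was the 1 T cell among them. It stays among the 53, and the comparison of day 1 with day 7 was also made without it.

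The CD3 chains, which the rule used, varied between cells. All 3 chains were seen in 33 of 53 cells, 2 chains in 15 and 1 chain in 5, and the last were all day 1 cells. Cd3d was found in 50 cells, Cd3g in 46 and Cd3e in 38. Cd3g ran from 0 to 3 UMIs per cell on day 1 (median 1), 3 to 15 on day 3 (median 9), 1 to 8 on day 5 (median 2.5) and 0 to 10 on day 7 (median 2). Cd3d was more even, with medians of 4, 4, 3 and 3. Cd3e was in 7 of 15 day 1 and 22 of 27 day 7 cells. These values chose the cells and are a description.

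**Figure D3:**
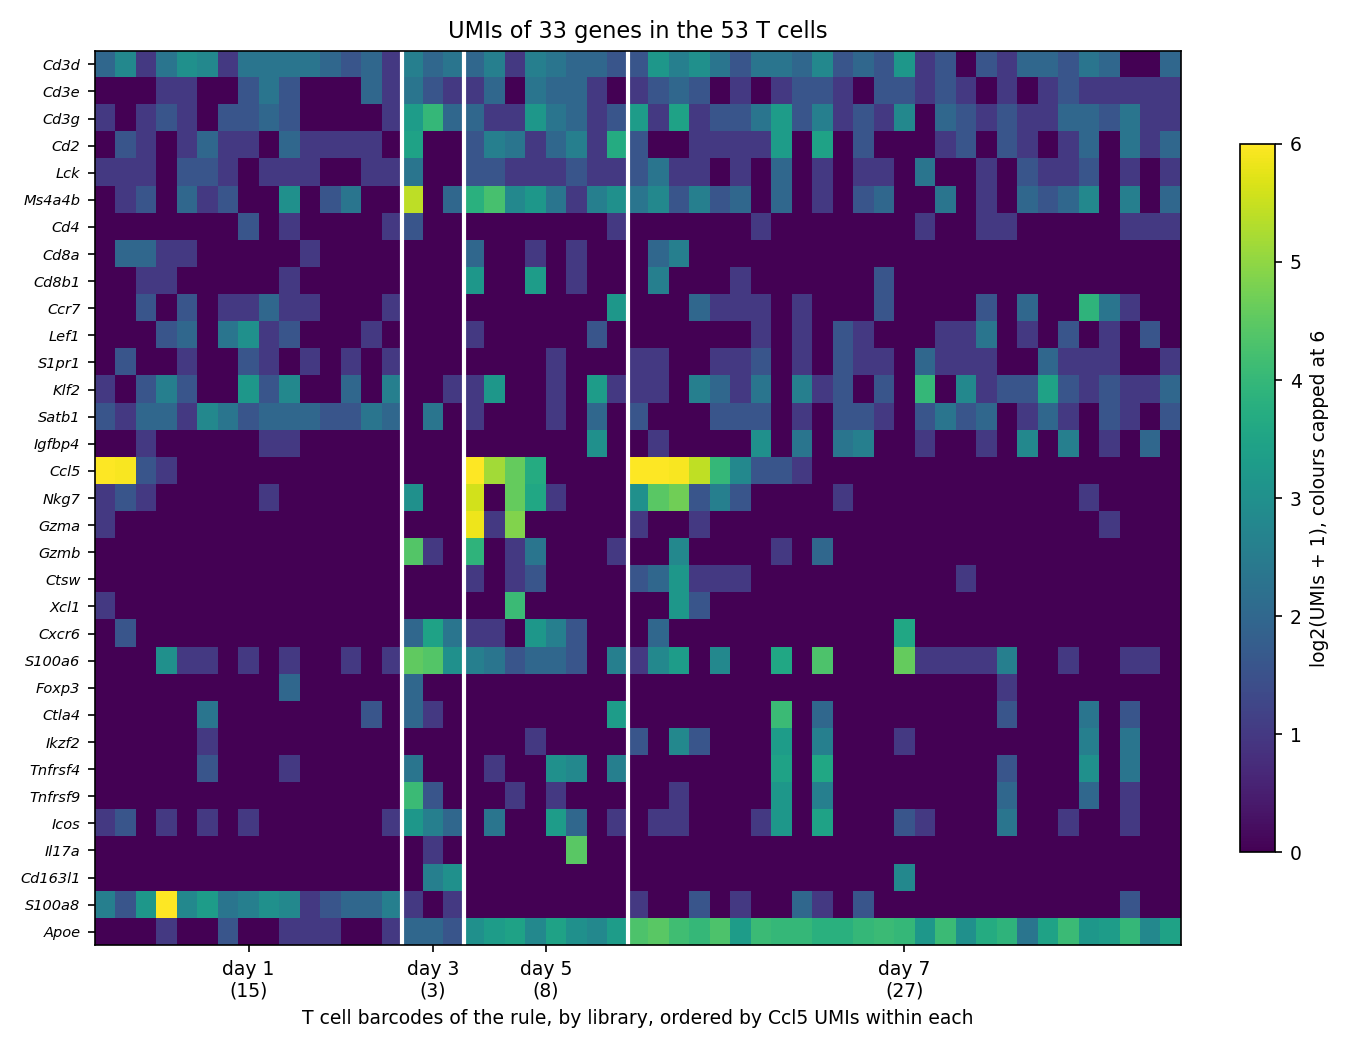
Log2(UMIs + 1), capped at 6, of 33 genes (rows of the heat map) in each of the 53 T cells, grouped by day and ordered by Ccl5 UMIs within a day. Naive genes fill many cells on days 1 and 7, and the Ccl5 UMIs of day 1 lie in few cells.

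Coreceptor transcripts were too sparse to class most cells. Cd4 alone was seen in 11 of 53 cells, Cd8a or Cd8b1 alone in 12, both in 1 and neither in 29. By day, Cd4 and Cd8 cells numbered 2 and 5 of 15 (day 1), 1 and 0 of 3 (day 3), 1 and 3 of 8 (day 5), and 7 and 4 of 27 (day 7). With each cell thinned to 1000 UMIs, to make depths equal, the counts were 1 and 5 on day 1 and 3 and 3 on day 7. Day 1 thus had more cells with Cd8 than with Cd4 UMIs under both depths, but their shares of 33.3% (11.8 to 61.6) and 13.3% (1.66 to 40.5) have overlapping exact intervals. On day 7 Cd4 cells made up 25.9% (11.1 to 46.3) and Cd8 cells 14.8% (4.19 to 33.7), which overlap as well. Cd4 alone was seen in 2.89% of macrophage barcodes on day 7 and Cd8 alone in 3.80%, or 0.18% and 0.36% after thinning. Under the wider limit, Cd4 and Cd8 cells numbered 2 and 5 of 19 at steady state and 19 and 20 of 89 on day 7.

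Naive and recirculating genes were widespread on days 1 and 7. Satb1, a chromatin organiser of T cells, was found in 15 of 15 day 1 cells (1 to 6 UMIs, median 3) and in 18 of 27 day 7 cells (0 to 4, median 1). Its level was 891 CPM on day 1 and 376 on day 7, against 0 and 31.0 in macrophages. After thinning, 10 of 15 day 1 cells still held it. Lef1, a transcription factor downstream of Wnt signalling, was found in 7 of 15 and 11 of 27 cells, at 424 and 183 CPM, against 0 and 0.9 in macrophages. Tcf7, its paralog, was found in 4 of 15 and 14 of 27 cells and stood at 226 CPM on day 7, against 1.1 in macrophages. Klf2, which drives genes of tissue exit, was found in 9 of 15 and 22 of 27 cells at 721 and 763 CPM, and S1pr1, the exit receptor itself, in 7 and 18 cells. Ccr7, the receptor that guides cells to lymph nodes, was found in 8 of 15 day 1 and 11 of 27 day 7 cells. Its day 7 level of 354 CPM lay between the 747 CPM of B-like barcodes and the 96.2 CPM of macrophages. B-like barcodes held at least 3 Cd79a, fewer than 2 CD3 and at most 2 C1q UMIs. The part of RNA from other cells was not tested. Igfbp4 had a lower level on day 1, with 3 UMIs in 3 of 15 cells (63.6 CPM), than on day 7, with 38 UMIs in 11 of 27 cells (408 CPM). Of the 3 day 3 cells 0 held Ccr7, Lef1 or S1pr1. Over the 53 cells, 41 held Klf2 or S1pr1, and 12 held both Lef1 and Igfbp4 (2 on day 1, 1 on day 5, 9 on day 7).

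Cytotoxic genes reached high UMI counts in single cells. By the sorting of cells given below, they were held by fewer cells than naive genes on days 1 and 7, and by more on days 3 and 5. Ccl5, a chemokine stored by CD8 memory and NK cells, had 168 UMIs on day 1, of which 105 and 60 lay in single cells. It had 0 UMIs on day 3, 237 on day 5 with up to 167 in a cell, and 268 on day 7 with up to 76. It was at 0 in 36 of 53 cells and at 10 or more UMIs in 11 (2 on day 1, 4 on day 5, 5 on day 7). Of these 11 cells 5 held Cd8a or Cd8b1 alone, 0 held Cd4 alone and 3 held Ccr7 or Lef1 as well. Nkg7, a granule protein, had at most 2 UMIs in a day 1 cell, but up to 47 on day 5 and 25 on day 7, at 106, 461, 3345 and 687 CPM on days 1, 3, 5 and 7. Granzyme transcripts were found in few cells on days 1 and 7 and in more of the few cells between. Gzma was in 1 of 15, 0 of 3, 3 of 8 and 3 of 27 cells in order of day, and Gzmb in 0 of 15, 2 of 3, 4 of 8 and 3 of 27. Day 5 held the cell with most, with 167 Ccl5, 57 Gzma, 47 Nkg7, 14 Gzmb, 3 Cd8a and 8 Cd8b1 UMIs. Another day 5 cell held 28 Gzma, 23 Ccl5 and 16 Xcl1 UMIs together with 3 Klrb1c, 4 Klre1 and 13 Tyrobp UMIs, which are NK genes. On day 7, a cell held 60 Ccl5, 25 Nkg7 and 5 Cd8a UMIs, and another held 64 Ccl5, 21 Nkg7, 3 Cd8a and 5 Cd8b1 UMIs. Ccl4 is not read as a T cell gene here: after thinning 40.7% of day 7 T cells held it against 56.2% of macrophages, and 20% against 83.7% on day 1. Sorting cells by whether they held only a naive gene (Ccr7 or Lef1), only a cytotoxic gene (Ccl5, Nkg7, Gzma or Gzmb), both or neither gave 7, 2, 3 and 3 cells for day 1 and 9, 5, 8 and 5 for day 7. Day 3 gave 0, 2, 0 and 1, and day 5 gave 1, 4, 2 and 1.

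**Figure D4:**
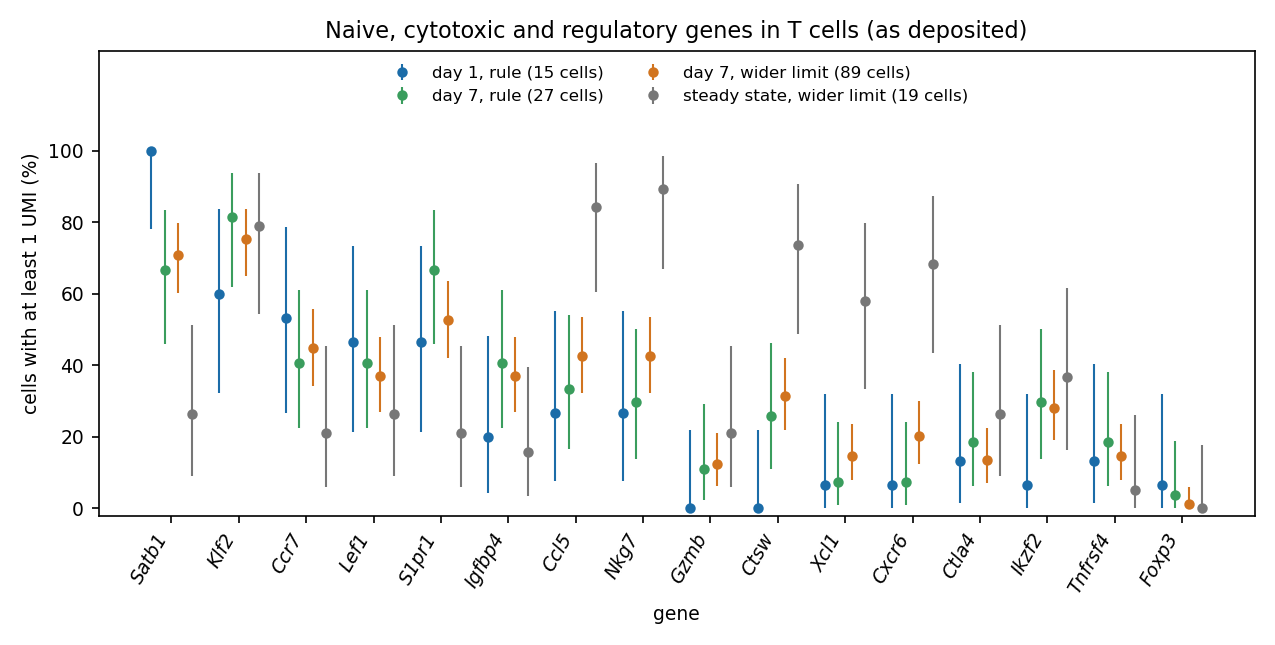
Percent of T cells with at least 1 UMI of 16 naive, cytotoxic and regulatory genes at the depth deposited, with exact 95% intervals (lines, counting error only), for day 1 and day 7 by the rule and day 7 and steady state under the wider C1q limit. Satb1 is held by 15 of 15 day 1 cells, while Nkg7, Ccl5 and Ctsw are held by most of the 19 steady-state cells, of which 9 carry NK genes.

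Genes of the regulatory list differed in how many cells held them. Icos was found in 6 of 15, 3 of 3, 4 of 8 and 10 of 27 cells in order of day, and others in few cells. Foxp3, the factor that defines regulatory T cells, was found in 3 of 53 cells, 1 each on days 1, 3 and 7. Ctla4, an inhibitory receptor, was found together with Tnfrsf4, a costimulatory receptor also called OX40, in 8 cells (1, 1, 1 and 5 on days 1, 3, 5 and 7), and 2 of these 8 also held Foxp3. A day 3 cell held the most of these genes at a time, with 2 Cd4, 3 Foxp3, 3 Ctla4, 4 Tnfrsf4, 13 Tnfrsf18, 16 Tnfrsf9 and 8 Icos UMIs, with 12 Pdcd1, 20 Gzmb, 8 Areg and 32 Isg15. A day 7 cell held 16 Ctla4, 9 Ikzf2, 10 Tnfrsf4, 8 Tnfrsf9, 8 Icos and 8 Izumo1r UMIs but 0 Foxp3. Another day 7 cell held 11 Tnfrsf4, 10 Icos and 3 Ctla4 UMIs. Of the 27 day 7 cells, 11 held Tnfrsf18, 10 held Icos, 8 held Ikzf2, 6 held Tnfrsf9 and 5 each held Ctla4, Tnfrsf4 and Izumo1r. Tnfrsf4 stood at 365 CPM on day 7 against 3.3 in macrophages. The regulatory list made up 0.072%, 0.580%, 0.343% and 0.238% of T cell UMIs in order of day.

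Other programmes were carried by single cells. Il17a, the cytokine of Th17 and innate-like gamma-delta cells, was found in 2 cells: a day 5 cell with 21 Il17a and 2 Il17f UMIs, and a day 3 cell with 1. That day 3 cell held 15 Cd3g, 5 Cd163l1, 4 Blk and 10 Cxcr6 UMIs, and a second day 3 cell held 7 Cd163l1, 2 Blk and 4 Cxcr6. Cd163l1, a scavenger receptor of gamma-delta T cells, was found in 3 of 53 cells, 2 on day 3 and 1 on day 7, and all 3 also held the kinase gene Blk. The remaining day 3 cell is the Foxp3 cell described above, so the 3 cells of that day differed among themselves. A day 5 cell held 11 Il1rl1, 9 Icos, 8 Pdcd1 and 7 Tnfrsf4 UMIs. Interferon-stimulated genes made up 0.047%, 0.744%, 0.314% and 0.063% of T cell UMIs on days 1, 3, 5 and 7. Genes of activation and tissue residence made up 0.136%, 1.77%, 1.01% and 0.445%, against 0.533%, 0.875%, 0.708% and 0.694% in macrophages, so on days 1 and 7 they lay below the macrophage level. The proliferation gene Top2a was found in 2 of 53 cells.

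Day 1 and day 7 hold the largest sets of the rule, with 15 and 27 cells, and were set side by side after the data were seen. Of 788 genes with at least 20 UMIs in both sums together, 27.5% were at least 2-fold apart, 12.4% higher on day 1 and 15.1% lower (98 and 119 genes). Without the cell marked by Scrublet it was 27.3% of 746. The genes with the highest ratios included Cxcl3, Il1a, S100a9, S100a8, Cxcl2 and Ccl3, and most of their UMIs came from that 1 cell: Cxcl2 had 806 UMIs with it and 61 without, and Ccl3 had 192 and 14. The macrophage barcodes of the same libraries differed in the same direction for Saa3 and Apoe. Without the marked cell Saa3 was 45.6-fold higher (17.1 to 171) in day 1 T cells, beside 33154 CPM on day 1 and 211 on day 7 in macrophages. Apoe stood at 147 CPM on day 1 and 3791 on day 7 in T cells, beside 5027 and 29061 CPM in macrophages. The 3 neutrophil markers tested were all higher on day 1 and the 4 macrophage markers tested were all lower, with median log2 ratios of 5.53 (3.81 without the marked cell) and -3.18. MHC class II genes, which present antigen in macrophages and B cells, were lower in day 1 T cells too: Cd74 had 6 UMIs against 134 and H2-Aa 2 against 50, beside 2423 and 11767 CPM of Cd74 in macrophages. The part of RNA from other cells in these ratios was not tested. Without the marked cell, the highest ratios among genes that are not neutrophil or macrophage markers included Gna13, a G protein subunit, at 7.09 (3.25 to 17.1), Tpr, a nuclear pore protein, at 6.66 (3.47 to 13.6) and Tsc22d3, a glucocorticoid-induced gene, at 5.51 (2.73 to 11.8). Macrophages were higher on day 1 for Gna13 (1.87-fold) and Tsc22d3 (3.12-fold), and not for Tpr (71.6 and 91.6 CPM).

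The T cell lists were set against the same days as counts of genes at least 2-fold apart. Of 6 genes of activation and tissue residence tested, 5 were lower on day 1 (S100a4, S100a6, Cd27, Crip1 and Lgals1), with a median log2 ratio of -2.07 where all genes had -0.12. S100a6 ran from 0 to 7 UMIs per cell on day 1 (median 0) and from 0 to 23 on day 7 (median 1), a ratio of 0.295 (0.151 to 0.532). The 7 UMIs lay in the marked cell, and without it the day 1 cells held at most 1 and the ratio was 0.157 (0.0561 to 0.356). Lgals1, a galectin, ran from 0 to 2 (median 0) and from 0 to 19 (median 1), a ratio of 0.187 (0.0730 to 0.405). Macrophages held both genes on both days, at 1724 and 1057 CPM for S100a6 and 960 and 1811 for Lgals1. Of 7 regulatory genes tested, 6 were lower on day 1 (Ctla4, Icos, Ikzf2, Tnfrsf9, Tnfrsf4 and Capg), with a median of -1.19. By cells, Icos was in 6 of 15 day 1 and 10 of 27 day 7 cells. Ctla4 and Tnfrsf4 were each in 2 and 5 cells, and the same 5 day 7 cells held all day 7 UMIs of both. Ikzf2 was in 1 and 8 cells and Tnfrsf9 in 0 and 6. Capg was at 0.474 (0.159 to 1.18) with and 0.273 (0.0528 to 0.896) without the marked cell. Ikzf2 had 1 UMI on day 1 and 34 on day 7, a ratio of 0.0581 (0.00143 to 0.346), where macrophages had 0 and 3.8 CPM. Of 4 cytotoxic genes tested, Ccl3 and Ccl4, which macrophages also hold, were higher on day 1, with a median of 2.26 for the list. Nkg7 was lower at 0.154 (0.0482 to 0.379). Without the marked cell 1 of the 4, Ccl3, was higher and Nkg7 was lower, with a median of 0.55. Cd7, a receptor of T and NK cells, had 1 UMI against 42. Of 7 naive genes tested, Satb1 at 2.37 (1.48 to 3.82) and Lef1 at 2.32 (1.16 to 4.72) were higher on day 1, while Igfbp4 at 0.156 (0.0308 to 0.492) and Tcf7 at 0.470 (0.139 to 1.28) were lower, and the last interval includes 1. Cd200, a membrane glycoprotein, had 24 UMIs on day 1 and 0 on day 7, at least 15.8-fold higher (floor of 3 UMIs over the day 7 cells). Without the marked cell Ctla4 and Ccl4 no longer reached a 2-fold difference and Tnfrsf18 did, and the other genes named from these lists stayed on their side. Under the wider limit, where 30.7% of 2400 genes were 2-fold apart, 9 of 12 genes of tissue residence, 3 of 8 regulatory genes and 7 of 11 cytotoxic genes were lower on day 1, and Satb1 and Lef1 were higher and Igfbp4 lower among 9 naive genes. With median-of-ratios scaling, 64 genes were higher and 174 lower, since that scaling moved the median of all genes to -0.42. With totals without mitochondrial and ribosomal protein genes it was 83 and 148, at a median of -0.28.

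Day 7 was compared with steady state only under the wider limit, with 89 and 19 cells, since the rule left none at steady state. Of 2619 genes with at least 20 UMIs over both sums, 18.6% were at least 2-fold apart, 218 higher on day 7 (8.32%) and 268 lower (10.2%), with a median log2 ratio of -0.02. Because 9 of 19 steady-state cells carried the NK mark, each value was also taken without marked cells (82 and 10 cells), where 19.3% of 2193 genes were 2-fold apart, 10.5% higher and 8.8% lower. The 9 marked cells held other genes than the 10 unmarked ones. All 9 held Ccl5, Nkg7, Ctsw, Xcl1 and Cd3g, but Cd3d was in 1 and Cd3e in 1, and Tcf7, Ccr7, Lef1 and S1pr1 were in 0. Of the 10 unmarked cells, 9 held Tcf7, 9 Klf2, 8 Il7r, 8 Nkg7, 7 Ccl5, 5 Lef1 and 4 each Ccr7 and Cd8b1.

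The lists were counted with and without these cells. Of 12 cytotoxic genes tested, 8 were lower on day 7 (Fasl, Xcl1, Ifng, Gzmb, Ccl5, Ccl3, Ccl4 and Ctsw), with a median log2 ratio of -1.46. Without marked cells 3 of 10 were lower (Fasl, Xcl1 and Ccl4), with a median of -0.74. Xcl1, a chemokine for cross-presenting dendritic cells, was at 0.0987 (0.0772 to 0.125) of its steady-state level and at 0.116 (0.0673 to 0.200) without marked cells. Ccl5 was at 0.345 (0.312 to 0.382) and 0.511 (0.438 to 0.598), and Gzmb at 0.184 (0.119 to 0.282) and 0.551 (0.248 to 1.39). Gzma had 12 UMIs at steady state, all in marked cells, and its ratio of 1.41 (0.757 to 2.85) became at least 2.66-fold higher on day 7 against a floor of 3 UMIs. Without marked cells, 31 of the 33 Xcl1 UMIs at steady state lay in 1 cell, so that ratio rests on it. Xcl1 stayed below 0.5 with both interval bounds under 1 in both sets. Ccl4 did as well, but macrophages held it at 3227 CPM at steady state and 2594 on day 7, above the day 7 T cells, so it is not read as a T cell value. The median log2 ratio of NK markers was -1.39 with and -0.06 without marked cells.

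Of 9 naive genes 4 were higher on day 7 (Dapl1, S1pr1, Igfbp4 and Satb1; median 0.45), and 1 of 9, Igfbp4, was higher without marked cells, where Klf2 and Il7r were lower and the median was -0.38. Igfbp4 was 6.27-fold higher (2.62 to 19.6) with and 9.39-fold higher (2.55 to 78.3) without marked cells, while in macrophages it was lower on day 7 (66.2 against 255 CPM). Satb1 went from 2.67 (1.48 to 5.30) to 1.67 (0.902 to 3.42). Of 8 regulatory genes, 4 were higher on day 7 in each set: Ikzf2, Tnfrsf4 and Izumo1r in both, Tnfrsf9 with and Capg without marked cells (medians 0.47 and 0.87). Tnfrsf4 had 48 UMIs on day 7 and 1 at steady state, a ratio of 11.4 (1.95 to 460) and of 6.83 (1.17 to 275) without marked cells. Pdcd1, an inhibitory receptor, was at 0.215 (0.143 to 0.324) with and 0.854 (0.400 to 2.09) without them. Gata3, a factor of type 2 helper cells, stayed lower at 0.181 (0.0940 to 0.342) and 0.107 (0.0508 to 0.219), and so did the residence receptor Cxcr6 at 0.485 (0.340 to 0.700) and 0.462 (0.30 to 0.734). Without marked cells, 2 steady-state cells held 10 Cxcr6 UMIs each and the others at most 3, so that ratio rests largely on these 2. One of them is the Cd3g cell described below. Gata3 was also listed as an innate lymphoid cell marker, and of 2 such markers tested 1 was lower with and 2 without marked cells. An unmarked steady-state cell held 6 Cd3g, 10 Cxcr6, 5 Tnfrsf18 and 3 Il1rl1 UMIs but 0 Cd3d, Cd3e, Lck and Cd2. Whether that cell is a T cell was not tested. Cd8a and Cd8b1 were at 0.697 and 0.631 in all cells and at 0.398 (0.216 to 0.773) and 0.393 (0.245 to 0.648) without marked cells. At steady state 1 unmarked cell held 11 Cd8a and 10 Cd8b1 UMIs, and each other unmarked cell held at most 3 and 8. The Cd8a ratio without marked cells thus rests largely on that cell. Cd4 had 22 UMIs on day 7 against 3 at steady state, a ratio of 1.74 (0.524 to 9.09), and 22 against 1 without marked cells, a ratio of 3.13 (0.506 to 129).

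**Figure D5:**
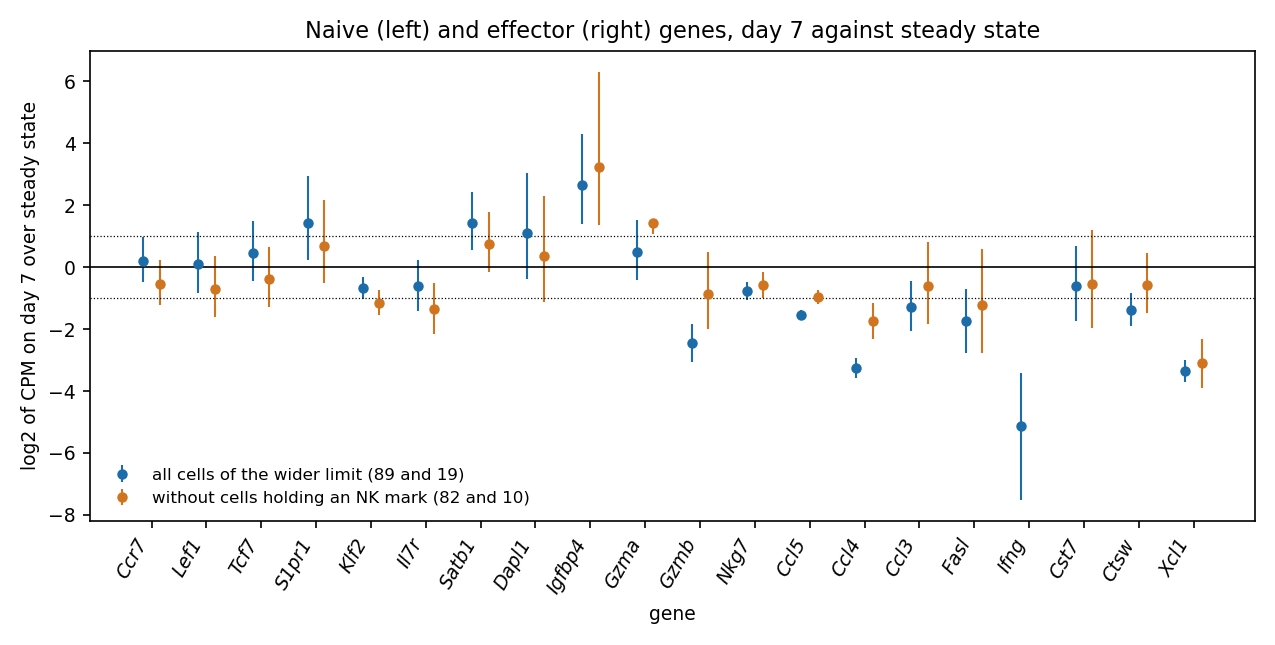
Log2 ratio of CPM on day 7 over steady state, with 95% intervals for counting error only, for 20 naive and effector genes under the wider C1q limit, with and without barcodes holding the NK mark (dotted lines at 2-fold). Gzma without marked cells is drawn at its lower bound, since it had 0 UMIs at steady state, and Ifng has too few UMIs in the second set to be drawn. Igfbp4 lies above 0 and Xcl1 lies below 0 in both sets, as does Ccl4, which macrophages also hold. Without marked cells, 31 of the 33 Xcl1 UMIs at steady state lay in 1 cell.

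Immediate early and heat shock genes were lower on day 7 for 7 of 7 tested in both sets, with median log2 ratios of -1.52 and -1.69. Hspa1a, a heat shock chaperone, had 100 UMIs at steady state and 2 on day 7. Macrophage barcodes of the same libraries moved the same way, at 3088 and 109 CPM for Hspa1a, and Fos and Jun in macrophages were at 0.373 and 0.162 of their steady-state level. The highest ratios over all genes rested on few steady-state UMIs. Spp1, which macrophages of healing tissue make, had 113 UMIs on day 7 against 2, a ratio of 13.4 (3.63 to 112), beside 3254 and 52.7 CPM in macrophages. The next 9 (Tnfrsf4, Arl5c, Grb2, Ube2j1, Kbtbd11, Cd6, Bbip1, Actl6a and Mif4gd) had 1 UMI each at steady state, with lower interval bounds of 1.14 to 1.95. The lowest, beside Hspa1a, Ifng, Klrb1c, Xcl1 and Ccl4, were Rgs16, Atf3, Cited4, Hsph1 and Dnajb1. Dnajb1, a heat shock co-chaperone, was at 0.109 (0.0671 to 0.173) in T cells, beside 476 and 45.1 CPM in macrophages at steady state and on day 7. With median-of-ratios scaling 377 genes were higher and 143 lower on day 7 (all-gene median 0.29), and with totals without mitochondrial and ribosomal protein genes 311 and 175 (median 0.19), so the direction of the overall split depends on the scaling.

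Cd4 and Cd8 cells could be compared only as a description over the wider set, with 26 Cd4, 35 Cd8 and 78 unclassed cells. Cytotoxic genes were found in more of the Cd8 cells: Nkg7 in 28 of 35 (80.0%) against 6 of 26 Cd4 cells (23.1%), Ccl5 in 25 against 6, and Ctsw in 21 against 5. Cxcr6 followed the same pattern with 17 against 5. Tnfrsf4 went the other way, in 12 of 26 Cd4 cells (46.2%) and 1 of 35 Cd8 cells (2.9%). Ctla4 was in 9 Cd4 and 6 Cd8 cells, Icos in 16 and 14, and Igfbp4 in 10 and 5. Cells with neither coreceptor lay between the classes for Nkg7 (44.9%) and Tnfrsf4 (10.3%), and Gzma was in 15 of them, against 5 Cd8 and 0 Cd4 cells. Of those 15 cells 7 carried the NK mark, as did 14 of the 78 unclassed cells. As shares, Gzma was in 19.2% of unclassed and 14.3% of Cd8 cells, and in 12.5% and 15.2% without marked cells. The cells pool 5 libraries that differ in depth and time, and the classes were not tested over libraries, since only day 7 holds 10 cells of each.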

How the data were processed

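Hearts were measured by droplet single-cell RNA sequencing (10x Genomics, 3' chemistry). The deposited files hold raw UMI counts per gene and barcode for 5 CD45+ libraries and 2 CD11b+ pools, with 27998 genes in the CD45+ annotation. Per the submitters' processing notes the authors used Cell Ranger and mm10. Version 3.0.2 is named in the file header of the CD11b+ pools. The version and annotation used for the CD45+ libraries are not given in the sources used here.

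Counts were analysed with Python 3.11.15, numpy 2.4.6, scipy 1.17.1, pandas 2.3.3 and scanpy 1.11.5. Cells were chosen as stated in the report, UMIs were summed per library, and levels (CPM) are UMIs scaled to a sum of 1000000. Shares have exact Clopper-Pearson intervals, and ratios have conditional exact intervals at 95%. PCR duplicates are removed by UMIs, and the intervals and floors cover counting error only. Thinning drew 1000 UMIs per cell (seed 0). Genes with at least 20 UMIs over both sums were compared, and at least 2-fold apart counted as different. Named genes are those of the lists, the 15 highest T cell ratios, and genes among the 10 highest or lowest ratios of a comparison. Single cells, and the day 1 against day 7 comparison, were chosen after their values were seen. No cell was removed as a doublet. The scripts were tested on simulated data. The members and gene lists were chosen with earlier results of these data known. Some listed genes are not reported here and were left out of the list counts.

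The planned edgeR quasi-likelihood test of Cd8 against Cd4 cells was not run, since it needed 3 libraries with 10 cells of each class. The planned comparison of day 7 with steady state needed 20 cells in each, and was made under the wider C1q limit with fewer.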

Additional observations from a re-analysis of the deposited data

Results flagged for a closer look

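The 2 CD11b+ pools, which the comparisons above do not use, also held barcodes that pass the T cell rule. CD11b is an integrin of myeloid cells. In the heart pool 5 of 4835 kept barcodes passed (0.103%, exact interval 0.0336 to 0.241), with a median of 820 UMIs. In the pool of blood and heart 94 of 11592 kept barcodes passed (0.811%, exact interval 0.656 to 0.991), with a median of 7274 UMIs. Of these 94 barcodes, 73 held Ms4a4b, 64 held the kinase gene Lck, 52 held Cd2 and 52 held Ccr7, while 83 also held Lyz2 and 86 held S100a8, which are myeloid genes.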

How the results depend on the processing

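The limit on C1q UMIs moved the share of T cells at steady state and on day 7, and the choice of barcodes it is taken over moved that of day 1. At steady state the share was 0% by the rule, 1.40% with each cell thinned to 1000 UMIs, 2.95% under the wider limit, 1.55% under it without the NK mark, and 0.775% and 3.10% with the C1q factor at 0.1 and 0.5. On day 7 the share of 1.50% became 0.0557% with Cd79a and C1q both at 0, 2.34% after thinning, 4.96% under the wider limit, 4.57% without the NK mark, and 2.84% and 5.01% at factors of 0.1 and 0.5. On day 1 it was 22.4% among barcodes with S100a8 and S100a9 under 10 UMIs and 1.52% after thinning. The factor-based limits and the leaving out of NK-marked or Scrublet-marked cells were chosen after seeing the data. Of the genes 2-fold apart on day 7 against steady state, 486 became 121 with at least 50 UMIs and 5404 with no filter, and on day 1 against day 7, 217 became 66 and 3519. Of 390 alternative values for 78 single-gene shares, 353 moved by less than their binomial interval and 37 by more, all 37 from thinning depth or the CD3 minimum.

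With 1 library per time point, leaving out a replicate was not possible. No paired analysis was possible because each time point has 1 library and no replicate number is shared between time points. Cd4 and Cd8 cells do share libraries, but their pairing by library was left out, since 10 cells of each class were found only on day 7. The other settings foreseen for the Cd8 against Cd4 test (DESeq2, no filter, no block, each library left out, classes from 2 UMIs, total counts) were not run, as the test itself was not made. Depth limits the classes: most T cells held neither coreceptor, and absence of a UMI does not show absence of a transcript. Day 3 rests on 3 cells and day 5 on 8.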
